A study of Mus musculus with 9 samples.

Results

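The genes described here are 35 mouse genes of glycolysis and the response to low oxygen, taken as a list by name. They are glucose and lactate transporters, enzymes of glycolysis, regulators of glycolytic flux, oxygen-sensing genes and other genes induced by hypoxia. They were read in FRCs (fibroblastic reticular cells), lymph node stroma that builds a fibre network and makes chemokines for lymphocytes. RNA of 9 female C57BL/6 mice was hybridised to Illumina bead arrays, with 3 arrays for brachial nodes draining a tumour at day 11, 3 at day 4, and 3 for nodes draining an injection of PBS, the control. For each array the cells of 1 animal were pooled over its 2 nodes, so the groups are sets of animals and the p-values measure the spread between them. The labels give the PBS group no day, and name neither the tumour nor the way the cells were isolated.

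Of the 35 genes, 32 had a probe among the 19057 gene symbols of the arrays, with 64 probes in all. The other 3 (Hk2, Gpi1 and Eno1) were not analysed here. A probe was tested where its signal was above that of negative control beads (detection p under 0.01) on at least 3 of the 9 arrays, and 27 members passed. The 5 members under this filter were Slc16a3, a lactate exporter, Aldoc, an aldolase, Pdk1, a pyruvate dehydrogenase kinase, Bnip3, a mitophagy receptor, and Car9, a carbonic anhydrase. No probe of Slc16a3, Aldoc or Bnip3 was detected on any array, and each probe of Pdk1 and Car9 was detected on at most 1 array. On single arrays the number of detected member probes, of 64, was between 26 and 38 at day 11, between 39 and 43 at day 4 and between 32 and 41 in PBS. Of all probes, 11218, 14727 and 9606 were detected on the day 11 arrays and 17627, 15198 and 15563 at day 4. The PBS arrays had 11529, 16489 and 15346. The lowest detected log2 signal was 6.56, 5.95 and 6.88 at day 11 and 5.57, 5.88 and 5.83 at day 4. In PBS it was 6.50, 5.71 and 5.86. A level that counted as detected on a day 4 array could therefore count as background at day 11. PBS replicate 1 stood apart across all tested probes, with correlations of 0.776 to 0.802 to every other array, while the other 8 arrays correlated with each other at 0.829 to 0.932. The members' and glycolytic enzymes' medians and counts of higher genes against PBS are given with and without it. Most single-gene values and the pathway lists are given only with it.

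Cells short of oxygen stabilise the transcription factor HIF, which binds a short core sequence in the promoters of its target genes. With enough oxygen, prolyl hydroxylases of the Egln family mark the alpha subunit of HIF for degradation. HIF targets include glucose transporters and nearly every step of glycolysis, which yields ATP without oxygen, and genes of vascular tone and mitophagy such as Adm and Bnip3. Proliferating and activated cells also raise glycolysis with oxygen present, and lymph node stroma expands when a node enlarges.

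The promoters printed first are those of the members with the lowest unadjusted p in any comparison (limma, probe of highest mean for each gene). None of these members was called after adjustment over all tested probes. HIF acts through such a core, and tested members with windows but no core are named below. RefSeq windows of 300 bases (250 before to 50 after each start site, build GRCm38.p6) were given for 24 of the 27 tested members, the exceptions being Slc2a3, Bnip3l and Ndrg1. The cores searched were ACGTG and GCGTG on both strands, and capitals mark every match, so that CACGC and CACGT are cores read from the opposite strand.
Adm at chr7:110627407-110627706, plus strand: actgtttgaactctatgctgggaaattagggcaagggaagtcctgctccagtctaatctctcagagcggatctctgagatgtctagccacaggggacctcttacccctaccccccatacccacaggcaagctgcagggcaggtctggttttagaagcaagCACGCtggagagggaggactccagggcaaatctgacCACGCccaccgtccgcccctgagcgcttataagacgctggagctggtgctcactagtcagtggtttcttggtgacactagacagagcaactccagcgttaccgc
Pfkfb3 at chr2:11553880-11554179, minus strand: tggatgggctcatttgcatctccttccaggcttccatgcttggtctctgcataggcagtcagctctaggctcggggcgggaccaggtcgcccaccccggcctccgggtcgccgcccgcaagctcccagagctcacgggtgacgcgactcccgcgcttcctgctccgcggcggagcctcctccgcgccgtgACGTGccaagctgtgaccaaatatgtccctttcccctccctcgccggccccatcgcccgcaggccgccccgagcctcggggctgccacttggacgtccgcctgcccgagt
Pfkfb3 at chr2:11502041-11502340, minus strand: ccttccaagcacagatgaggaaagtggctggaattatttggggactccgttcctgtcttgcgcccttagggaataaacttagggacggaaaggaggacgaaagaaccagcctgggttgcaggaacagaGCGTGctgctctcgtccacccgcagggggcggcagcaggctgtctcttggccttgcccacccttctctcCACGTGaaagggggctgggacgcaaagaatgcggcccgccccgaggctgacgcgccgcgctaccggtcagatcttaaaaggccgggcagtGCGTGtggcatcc
Pgk1 at chrX:106186850-106187149, plus strand: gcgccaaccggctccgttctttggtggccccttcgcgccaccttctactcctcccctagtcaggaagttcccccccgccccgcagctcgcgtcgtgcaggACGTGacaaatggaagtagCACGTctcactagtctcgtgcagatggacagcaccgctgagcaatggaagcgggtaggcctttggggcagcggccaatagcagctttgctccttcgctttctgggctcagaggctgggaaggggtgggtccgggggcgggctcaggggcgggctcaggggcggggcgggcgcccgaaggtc
Ankrd37 at chr8:45999801-46000100, minus strand: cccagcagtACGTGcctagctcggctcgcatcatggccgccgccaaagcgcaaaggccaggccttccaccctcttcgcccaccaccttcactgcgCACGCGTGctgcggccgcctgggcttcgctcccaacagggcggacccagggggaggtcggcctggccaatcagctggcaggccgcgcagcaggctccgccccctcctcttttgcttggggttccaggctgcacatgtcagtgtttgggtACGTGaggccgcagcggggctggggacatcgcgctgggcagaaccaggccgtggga

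Adm held 2 cores of the GCGTG form, both on the minus strand, with leftmost bases at -90 and -54 relative to the start site. Pgk1 held an ACGTG core at -150 and another on the opposite strand at -131. Of the Pfkfb3 windows, one held a single ACGTG core, and the other held GCGTG cores on either side of CACGTG, a palindrome that counts as ACGTG on both strands. In Ankrd37, GCGTG cores of both strands overlapped, and an ACGTG core lay at -6. A gene with several windows was counted if any of them held a core. By that count 21 of the 24 members (87.5%) had ACGTG or GCGTG, against 67.7% of the 7111 tested genes with a window and 46.7% of all 27025 genes with a window. ACGTG alone was held by 17 members (70.8%), against 29.7% of the 7111 tested genes and 21.8% of all genes with a window. Tpi1, Eno2 and Vldlr had windows without these letters. The members were listed by name, and many are known HIF targets, so their higher share is not a result of these arrays. A match describes the sequence and is not evidence of binding.

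On day 11 arrays none of the 27 tested members passed the threshold against PBS (limma, two-sided, Benjamini-Hochberg over 16577 probes, adjusted p under 0.05), with 0.0113% of the 8819 tested genes called. The lowest adjusted p among members was 0.224. At an unadjusted p under 0.05, 4 members were higher (Adm, Pfkfb3, Pgk1 and Pkm), against a background of 6.18% of genes, and 1 was lower (Eno2), against 4.07%. The 3 day 11 arrays lay wholly above the 3 PBS arrays for 6 members (these 4, Pgam1 and Pfkm), where 10.9% of genes did so, and wholly below for 1 member (Eno2), where 7.26% did. The change was above 0 for 15 members, 55.6% of them, beside 54.1% of genes, and below 0 for 12. The median log2 change over the members was 0.08, with a range of -0.76 to 1.34, and the median over all genes was 0.05. Without PBS replicate 1 the members' median was -0.21, with 12 higher.

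At day 4 none of the members passed either (limma, lowest adjusted p = 0.501), and 0% of genes were called. At an unadjusted p under 0.05, 3 members were higher than in PBS (Adm, Pkm and Tpi1) beside 4.72% of genes, and 1 was lower (Ankrd37) beside 3.28%. The day 4 arrays lay wholly above the PBS arrays for 5 members (these 3, Pfkm and Egln3), where 6.23% of genes did so, and wholly below for 2 (Ankrd37 and Eno2), where 4.31% did. The change was above 0 for 21 members, 77.8% of them, beside 53.8% of genes. Their median log2 change was 0.20, and that over all genes was 0.04. Without PBS replicate 1 the members' median was 0.05, with 15 higher. Both tumour groups were compared with the same PBS arrays, so these changes are not independent of each other.

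Day 11 and day 4 were also compared directly, and again no member passed (limma, lowest adjusted p = 0.723), with 0.0113% of genes called. At an unadjusted p under 0.05, 2 members were higher at day 11 (Ankrd37 and Pfkfb3) beside 3.11% of genes, and 1 was lower (Hk1) beside 3.35%. Groups did not overlap for 3 members higher at day 11 (Pfkfb3, Pgk1 and Adm) beside 7.9% of genes, and for 2 lower ones (Hk1 and Slc2a1) beside 7.6%. The change was above 0 for 11 members, 40.7% of them, beside 51.5% of genes, and the median was -0.08 against 0.02 over all genes. The 95% interval of a member's change reached between 0.57 and 1.64 to either side on the log2 scale (median 0.71). It included 0 for 22 members at day 11 against PBS, 23 at day 4 against PBS and 24 at day 11 against day 4.

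**Figure D1:**
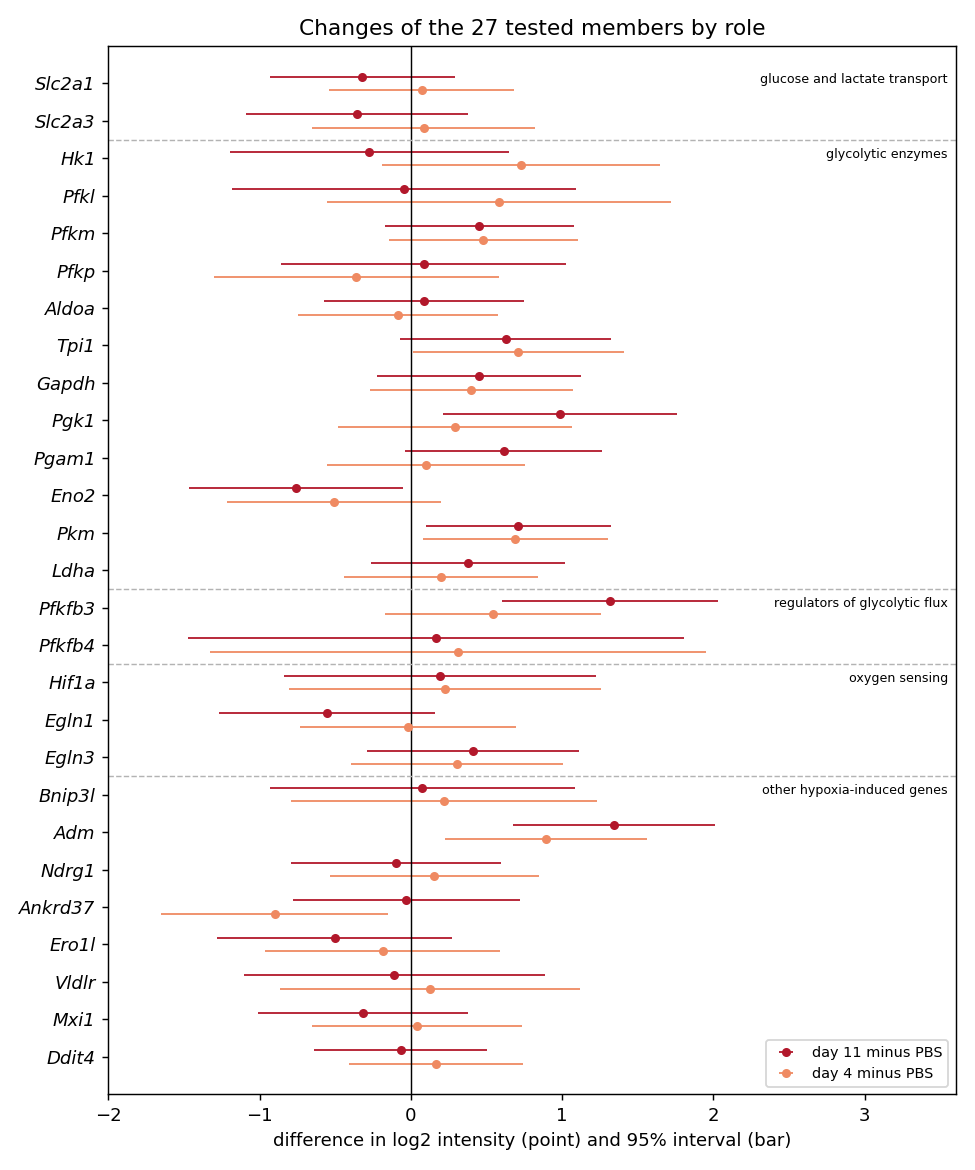
Difference in log2 intensity from PBS on the horizontal axis for the 27 tested members, grouped by role, with day 11 above day 4 for each gene; points are estimates and bars 95% intervals. Adm has the largest change at day 11, 1.34, and most bars cross 0. Hk1 was at background on every day 11 array, so its day 11 point is a measured difference of uncertain size.

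The results are given below by role, in log2 intensity after background correction and quantile normalization, a scale on which a difference of 1 is a doubling and on which levels of different probes are not compared. Because the RNA was taken from a pool of cells, fewer cells of a type and less RNA per cell cannot be told apart. Shares of all genes without overlap are given above for pairs of groups. For patterns that join day 11, day 4 and PBS the share was not computed.

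Glucose enters the cell through facilitative transporters. Slc2a1, the widespread glucose transporter, measured 9.98, 10.17 and 10.21 at day 11, 10.36, 10.53 and 10.63 at day 4, and 10.42, 10.80 and 10.09 in PBS. Day 11 lay below day 4 on every array, and PBS overlapped with both. The log2 change was -0.39 ± 0.27 for day 11 against day 4 (limma adjusted p = 0.852; standard errors follow ± throughout, with 3 arrays per group). From PBS it was -0.32 at day 11. Slc2a3, a high-affinity glucose transporter, had changes of -0.35 at day 11 and 0.08 at day 4, with overlapping groups.

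The glycolytic enzymes formed the largest role group, with 12 of 16 tested. At day 11, 9 of the 12 were higher and 3 lower than in PBS (median log2 change 0.41), and at day 4 the counts were again 9 and 3 (median 0.34). Without PBS replicate 1, 8 were higher in each comparison, and the medians were 0.23 at day 11 and 0.07 at day 4. Between day 11 and day 4, 7 were higher and 5 lower, with a median of 0.04. None passed the test.

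Pgk1, phosphoglycerate kinase, catalyses the first ATP-yielding step. Its level was 8.71, 9.11 and 9.30 at day 11, 8.28, 8.67 and 8.10 at day 4, and 7.42, 8.21 and 8.53 in PBS. Day 11 arrays were all above both other groups, and day 4 overlapped with PBS. The log2 change was 0.99 ± 0.35 for day 11 against PBS (limma adjusted p = 0.378), 0.69 ± 0.35 for day 11 against day 4 (limma adjusted p = 0.796) and 0.29 ± 0.35 for day 4 against PBS (limma adjusted p = 0.882).

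Pkm, pyruvate kinase, which makes ATP and pyruvate at the end of glycolysis, measured 8.98, 9.08 and 9.10 at day 11, 9.19, 8.99 and 8.91 at day 4, and 7.97, 8.70 and 8.36 in PBS. Both tumour groups lay above all PBS arrays and overlapped with each other. The changes from PBS were 0.71 ± 0.27 at day 11 (limma adjusted p = 0.412) and 0.69 ± 0.27 at day 4 (limma adjusted p = 0.582). A dimmer Pkm probe gave -0.09 and 0.78 for the same comparisons, so the probes disagreed in sign at day 11.

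Tpi1, triose phosphate isomerase, stood at 8.92, 9.27 and 9.72 at day 11, 9.29, 9.60 and 9.26 at day 4, and 8.28, 8.72 and 9.02 in PBS. Day 4 arrays were all above PBS, and day 11 overlapped with it through its lowest array. The change from PBS was 0.63 ± 0.31 at day 11 (limma adjusted p = 0.512) and 0.71 ± 0.31 at day 4 (limma adjusted p = 0.623), where a second Tpi1 probe gave 0.03 and -0.11.

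Eno2, an enolase best known from neurons, measured 7.18, 6.50 and 6.13 at day 11, 7.05, 6.78 and 6.74 at day 4, and 7.31, 7.59 and 7.19 in PBS. All tumour arrays were below all PBS arrays, the closest pair being a day 11 and a PBS array at 7.18 and 7.19. The change from PBS was -0.76 ± 0.32 at day 11 (limma adjusted p = 0.445) and -0.51 ± 0.32 at day 4 (limma adjusted p = 0.739). Eno2 was detected on 2 of 3 day 11 arrays, and without background correction these changes were -0.43 and -0.30.

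Hk1, a hexokinase that commits glucose to the cell by phosphorylating it, was above background on 0 day 11 arrays, on all 3 day 4 arrays and on 1 PBS array. It measured 5.21, 5.47 and 5.47 at day 11, 6.88, 6.35 and 5.93 at day 4, and 4.96, 6.53 and 5.49 in PBS. Day 11 lay below day 4 throughout, and PBS overlapped with both. Only a bound exists for day 11 and it gave no fold above 1 (limma adjusted p = 0.732 for day 11 against day 4).

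Pfkp, the platelet form of phosphofructokinase, measured 7.75, 7.18 and 7.43 at day 11, 6.43, 7.37 and 7.22 at day 4, and 6.61, 7.31 and 8.17 in PBS. The groups overlapped, with the widest spread in PBS. The change at day 4 was -0.36 ± 0.42 (limma adjusted p = 0.880), and 0.042 without PBS replicate 3.

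For the brightest probe of each remaining enzyme the 95% interval included 0 at day 11 and day 4. Pgam1, phosphoglycerate mutase, had log2 changes from PBS of 0.61 at day 11 and 0.10 at day 4, and its dimmer probe 0.81 and -0.10. The interval of the dimmer probe was 0.23 to 1.40 at day 11 and excluded 0 (limma adjusted p = 0.349). For both Pgam1 probes the day 11 arrays lay above all PBS arrays. Gapdh, glyceraldehyde phosphate dehydrogenase, had 0.45 and 0.40, Ldha, which turns pyruvate into lactate, 0.38 and 0.20, and Aldoa, an aldolase, 0.08 and -0.08. Pfkl, the liver form of phosphofructokinase, had -0.05 and 0.58. The Pfkl probe was detected on 1 of 3 day 11 arrays and 2 of 3 PBS arrays. It read 5.18 in PBS replicate 1 against 6.71 and 6.97 on the other PBS arrays. Pfkm, the muscle form of phosphofructokinase, had 0.45 and 0.48 on its brightest probe, while a probe detected on 1 of 3 day 11 arrays gave -0.77 at day 11. The remaining Pfkm probe was at background on every day 11 array.

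**Figure D2:**
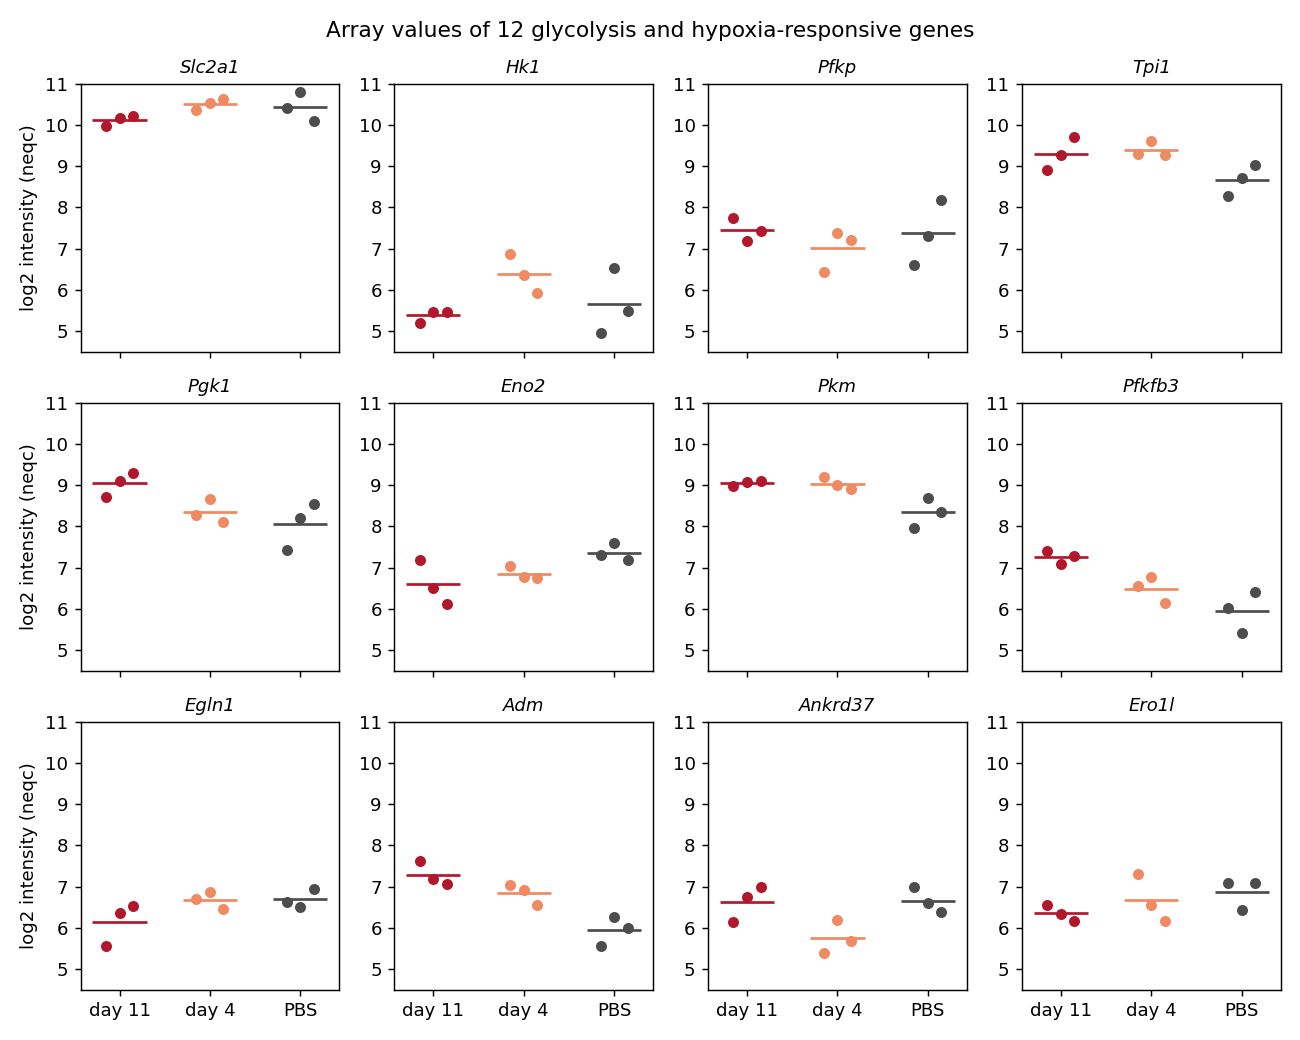
Log2 intensity on the vertical axis for the 12 members chosen by lowest p in each direction and comparison, with one point per array and a line at the group mean, for day 11, day 4 and PBS from left to right. Day 11 arrays of Pfkfb3 and Adm all lie above the other groups.

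Flux through glycolysis is set in part by enzymes that make or remove the activator of phosphofructokinase. Pfkfb3, which mainly makes that activator, measured 7.40, 7.09 and 7.29 at day 11, 6.55, 6.77 and 6.15 at day 4, and 6.01, 5.42 and 6.40 in PBS. Day 11 arrays were above all others, and day 4 overlapped with PBS. The log2 change was 1.32 ± 0.32 for day 11 against PBS (limma adjusted p = 0.253), 0.77 ± 0.32 for day 11 against day 4 (limma adjusted p = 0.732) and 0.54 ± 0.32 for day 4 against PBS (limma adjusted p = 0.718). Pfkfb3 was above background on 1 of 3 PBS arrays, which leaves the size of the change uncertain, and without background correction the change at day 11 was 0.68. Pfkfb4, a related bifunctional enzyme, had changes of 0.17 at day 11 and 0.31 at day 4, with a standard error of 0.74. It read 4.87 in PBS replicate 1 against 7.18 and 7.71 on the other PBS arrays. The means of 6.75 at day 11 and 6.90 at day 4 lay below those other PBS arrays.

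Among the oxygen-sensing genes, Hif1a, the oxygen-regulated subunit of HIF, is controlled mainly at the protein level. Its transcript had log2 changes from PBS of 0.19 ± 0.46 at day 11 (limma adjusted p = 0.907) and 0.22 ± 0.46 at day 4 (limma adjusted p = 0.942), and a second probe gave 0.22 and 0.09. Egln1, the main HIF prolyl hydroxylase, measured 5.55, 6.36 and 6.53 at day 11, 6.70, 6.88 and 6.47 at day 4, and 6.63, 6.52 and 6.95 in PBS. Day 11 reached below the other groups on 2 arrays and overlapped with them on the other. The change was -0.55 ± 0.32 from PBS (limma adjusted p = 0.569) and -0.54 ± 0.32 from day 4 (limma adjusted p = 0.825). The probe was above background on 1 of 3 day 11 arrays, and without background correction the change from PBS was -0.26. A second Egln1 probe gave -0.44 from PBS, and the third was at background on every day 11 array. Without day 11 replicate 1 the change from PBS was -0.25. Egln3, a prolyl hydroxylase that HIF itself induces, had 0.41 at day 11 and 0.30 at day 4. A dimmer Egln3 probe gave -0.62 and -0.48, and it read 7.93 in PBS replicate 1 against 5.51 and 5.06 on the other PBS arrays.

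Of the other hypoxia-induced genes 8 were tested. At day 11, 2 were higher and 6 lower than in PBS, with a median log2 change of -0.08. At day 4, 6 were higher and 2 lower, with a median of 0.14. Between day 11 and day 4, 2 were higher and 6 lower, with a median of -0.23. None passed.

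Adm encodes adrenomedullin, a vasodilator peptide and a common marker of HIF activity. It measured 7.62, 7.18 and 7.07 at day 11, 7.04, 6.92 and 6.56 at day 4, and 5.57, 6.27 and 6.00 in PBS. The 3 groups did not overlap, with day 11 highest and PBS lowest. The share of all genes with this order was not computed. The log2 change was 1.34 ± 0.30 for day 11 against PBS (limma adjusted p = 0.224), 0.89 ± 0.30 for day 4 against PBS (limma adjusted p = 0.501) and 0.45 ± 0.30 for day 11 against day 4 (limma adjusted p = 0.839). Adm was above background on all tumour arrays and on 2 of 3 PBS arrays, and without background correction the changes from PBS were 0.70 and 0.43.

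Ankrd37, an ankyrin repeat protein induced by HIF, stood apart at day 4. It measured 6.15, 6.75 and 6.98 at day 11, 5.39, 6.20 and 5.69 at day 4, and 6.998, 6.59 and 6.38 in PBS. Day 4 arrays were below all PBS arrays, and the day 11 arrays overlapped with both. The change was -0.90 ± 0.34 for day 4 against PBS (limma adjusted p = 0.547), 0.87 ± 0.34 for day 11 against day 4 (limma adjusted p = 0.723) and -0.03 for day 11 against PBS. Ankrd37 was detected on 1 of 3 day 4 arrays, and without background correction the change at day 4 was -0.42.

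Ero1l, listed under its current symbol Ero1a in RefSeq, oxidises protein disulfide isomerase in the endoplasmic reticulum. It measured 6.55, 6.34 and 6.17 at day 11, 7.31, 6.55 and 6.17 at day 4, and 7.08, 6.42 and 7.08 in PBS. The groups overlapped, and 1 of the day 11 arrays was above background. The change from PBS was -0.50 ± 0.35 at day 11 (limma adjusted p = 0.629), and -0.27 without background correction.

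The other members of this group lay close to PBS. At day 11 the log2 changes were 0.08 for Bnip3l, a mitophagy receptor, -0.10 for Ndrg1, a stress-response gene, -0.11 for Vldlr, a lipoprotein receptor, -0.32 for Mxi1, an antagonist of Myc, and -0.07 for Ddit4, an inhibitor of mTOR signalling. At day 4 the changes of the same genes were 0.22, 0.15, 0.13, 0.04 and 0.16. All of these groups overlapped.

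Separate probes of one gene did not always give the same sign. Of the 10 members with more than 1 tested probe, all probes had the same sign for 6 at day 11 against PBS, 5 at day 4 against PBS and 6 at day 11 against day 4. These counts include 1 probe of Pfkm and 1 of Egln1 that were at background on every day 11 array. Hif1a, Pfkp, Pgam1, Tpi1, Egln1 and Vldlr kept 1 sign at day 11, and Pfkm, Pkm, Egln3 and Ndrg1 did not.

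**Figure D3:**
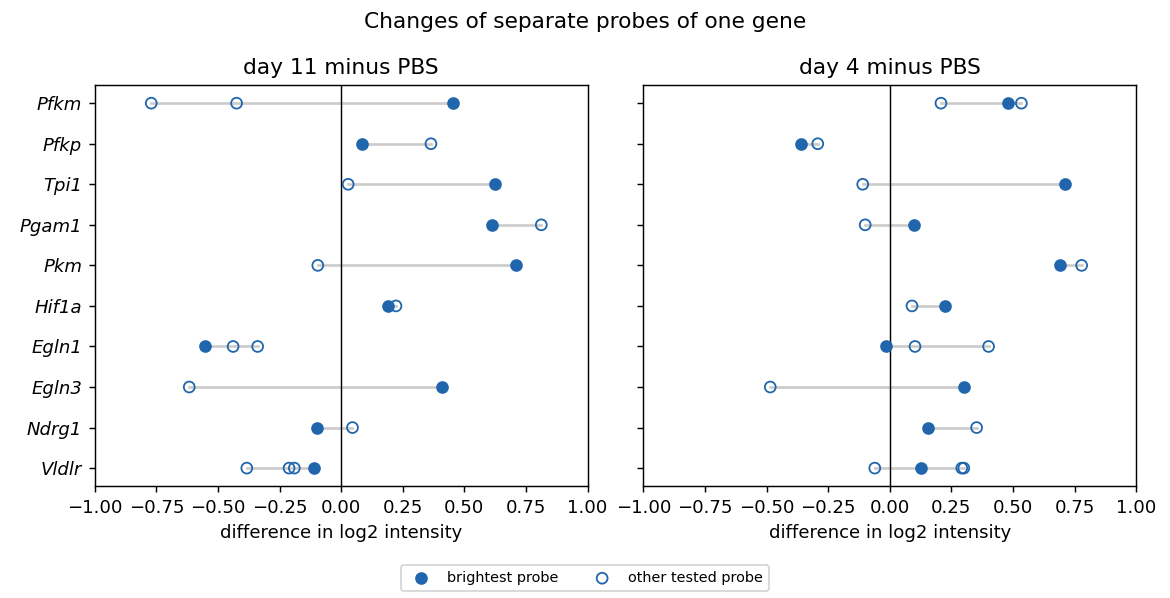
Difference in log2 intensity from PBS for each tested probe of the 10 members with several, at day 11 on the left and day 4 on the right; filled points are the probe of highest mean, which stands for the gene, and open points the others. The Pfkm point nearer to 0 among its open points at day 11 and the Egln1 point nearest to 0 at day 11 were at background on every day 11 array. Probes of Pfkm, Pkm and Egln3 lie on both sides of 0 at day 11.

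PBS replicate 1 had the lowest of the 3 PBS values for 15 of the 27 members, while 42.1% of all genes had theirs on it. Its median deviation from the PBS mean was -0.31 over the members and -0.39 over the glycolytic enzymes. The other PBS arrays lay at 0.16 and 0.18 over the members and at 0.19 and 0.014 over the enzymes. Without PBS replicate 1, at an unadjusted p under 0.05, 2 members were higher at day 11 beside 5.52% of all genes, and 1 at day 4 beside 4.27%. No member was then lower at that p, beside 4.74% of genes at day 11 and 3.93% at day 4, so Eno2 at day 11 and Ankrd37 at day 4 no longer met it. The day 11 arrays then lay wholly above the remaining PBS arrays for 6 members, beside 17% of genes. They lay wholly below for 6 members, beside 14.3%. Leaving out 1 array at a time, the change of Pgk1 at day 11 against PBS ranged from 0.67 to 1.22. At day 4 that of Pkm ranged from 0.50 to 0.87 and that of Tpi1 from 0.51 to 0.88. What set PBS replicate 1 apart was not tested.

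**Figure D4:**
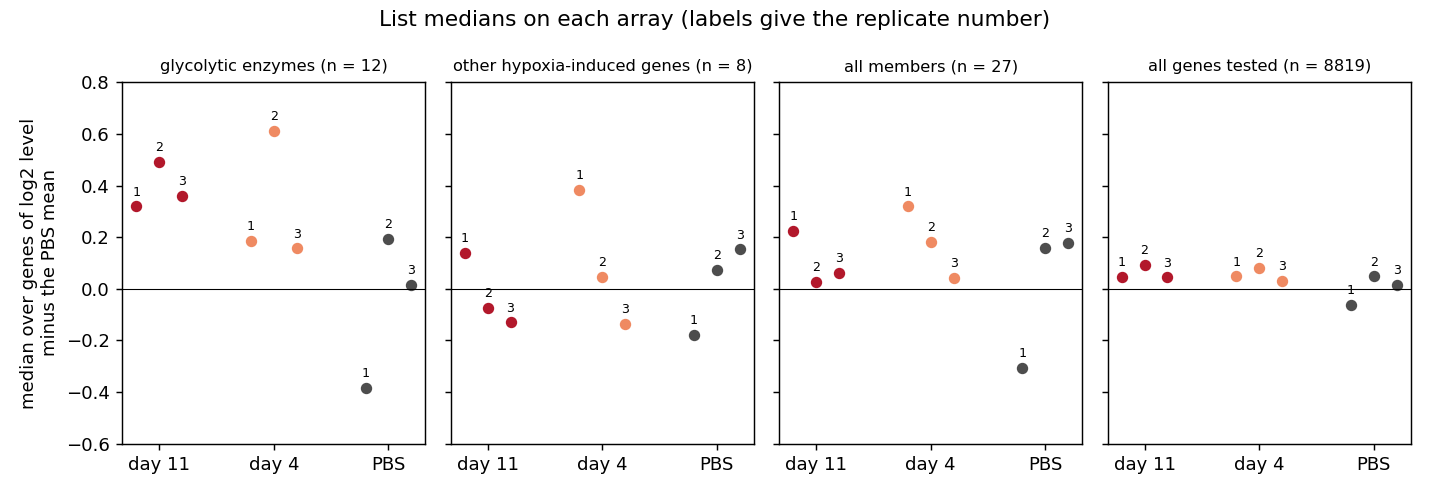
Median over genes of the log2 level minus the PBS mean, on the vertical axis, for each array of day 11, day 4 and PBS, with replicate numbers beside the points. PBS replicate 1 lies lowest for the members, at -0.31. Medians over all genes are held close together by quantile normalization.

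Further genes of the same pathways were taken from lists. Of the other hypoxia pathway genes, 8 of 21 were higher at day 11 (median log2 change -0.18), and none passed. Fam162a, a mitochondrial protein induced by hypoxia, had 0.999 ± 0.31 (limma adjusted p = 0.329), and Hif3a, an alternative alpha subunit, was not above background at day 11 (limma adjusted p = 0.418). Of the other glycolysis and gluconeogenesis genes, 10 of 13 were higher, with a median of 0.27. Pdk4, a pyruvate dehydrogenase kinase, had -1.19 ± 0.37 (limma adjusted p = 0.338), with all day 11 arrays below PBS, and Eno3, the muscle enolase, had -0.62 ± 0.41 (limma adjusted p = 0.618). Eno3 was detected on 1 array in each group, which leaves the size of its change uncertain.

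In the pentose phosphate pathway, which branches from glycolysis to supply NADPH and ribose, 6 of 8 genes were higher at day 11 (median 0.30). Pgls, a lactonase, had 1.23 ± 0.46 (limma adjusted p = 0.396), and Pgd, a dehydrogenase, 0.89 ± 0.42 (limma adjusted p = 0.493). Pgls read 5.53 in PBS replicate 1 against 7.57 and 6.53 on the other PBS arrays. Pgd was detected on 1 day 11 array, 2 day 4 arrays and 1 PBS array, which leaves the size of its change uncertain. In the tricarboxylic acid cycle 11 of 14 were higher, with a median of 0.40, and malate dehydrogenase Mdh2 had 0.59 ± 0.29 (limma adjusted p = 0.504) and the complex II subunit Sdhd 0.55 ± 0.31 (limma adjusted p = 0.550). PBS replicate 1 had the lowest median deviation of the PBS arrays for this list and the pentose phosphate list, at -0.26 and -0.34. Of 5 glycogen genes 3 were higher, with a median of 0.03. Ppp1r3c, which targets a phosphatase to glycogen, had -1.38 ± 0.26 (limma adjusted p = 0.194), with 8.03, 7.68 and 8.004 at day 11, 8.60, 8.85 and 8.65 at day 4, and 9.54, 9.21 and 9.10 in PBS. Pygl, liver glycogen phosphorylase, had 1.34 ± 0.53 (limma adjusted p = 0.418), with PBS replicate 1 at 5.32 and the other PBS arrays at 6.84 and 7.31. At day 4 the counts of higher genes were 11 of 21 in the hypoxia list (median 0.05), 8 of 13 in the glycolysis list (0.21), 7 of 8 in the pentose phosphate list (0.40), 11 of 14 in the tricarboxylic acid list (0.32) and 1 of 5 in the glycogen list (-0.35). None of these lists held a called gene in either comparison with PBS.

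Of the FRC markers 20 of 20 were detected on at least 3 arrays and 18 on all. Between 9606 and 17627 probes were detected per array. Markers of other cells were detected too, on at least 3 arrays for 7 of 9 T cell, 4 of 6 B cell, 5 of 8 plasma cell, 8 of 14 myeloid, 6 of 9 pericyte and smooth muscle, 4 of 10 blood endothelial and 2 of 8 lymphatic endothelial markers. Of the 2 lymphatic markers, Ccl21a is also on the FRC list, so its signal does not mark lymphatic cells alone. Blood endothelial markers Cdh5, Kdr, Emcn and Robo4, the lymphatic marker Lyve1, the B cell marker Pax5 and the macrophage markers Itgam, Fcgr3 and C1qb were detected on no array. Plasma cell markers, 1 of which passed the test at day 11, summed in linear intensity to between 1211 and 1861 at day 11, between 698 and 869 at day 4, and between 628 and 676 in PBS. T cell markers summed to between 680 and 1296 at day 11, between 558 and 633 at day 4, and between 833 and 986 in PBS. Sums of pericyte and smooth muscle markers were between 3674 and 4254 at day 11, between 4100 and 4701 at day 4, and between 3429 and 3921 in PBS. The sums of B cell and of both endothelial lists overlapped between each tumour group and PBS. Myeloid markers summed in linear intensity to between 4821 and 7308 at day 11, between 3523 and 5068 at day 4, and between 4969 and 6157 in PBS. Of the proliferation genes 12 of 13 were higher at day 11 (median 0.98) and 11 of 13 at day 4 (median 0.51), and none passed. Their sums ranged between 2983 and 3953 at day 11, between 1931 and 2649 at day 4, and between 1571 and 2029 in PBS. Immediate early and heat shock genes, which respond to acute stress, were higher in 2 of 18 at day 11 (median -0.15) and in 10 of 18 at day 4 (median 0.04). The part of these lists in the members' values was not tested.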

How the data were processed

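Expression was measured in 9 FRC samples. The deposited raw table held an intensity on a linear scale for each of 45281 probes and, per the file headers, a detection p-value beside it. The authors' processed intensity values were used as an alternative only. Per the submitters' processing notes lumi was used, with a version not given in the sources used here. Symbols came from the platform annotation table, with 34885 probes having 1 symbol, 18 several and 10378 unnamed here. By gene identifier 34807 were updated to RefSeq (GRCm38.p6). Promoter windows also came from RefSeq.

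The deposited intensities were background-corrected and quantile-normalized with neqc of limma 3.58.1 (R 4.3.3, offset 16) and taken to log2. Probes detected (p under 0.01) on at least 3 of 9 arrays were tested with lmFit and eBayes over all arrays (6 residual degrees of freedom), and p-values were adjusted by Benjamini-Hochberg and called at 0.05. A gene was read by its tested probe of highest mean. No spread besides that between 3 arrays a group was available, which limits the precision.

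The members and the other lists were chosen with earlier results of these data known. Array values are given for the 3 members with the lowest p in each direction and comparison. For pathway lists the 2 genes of lowest p at day 11 against PBS are named, and for other lists only undetected defining markers. Where every array of a group had a probe at background, a fold is given only as a bound, from the lowest detected signal of each array, and a measured difference printed for it is named as uncertain.

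The same fit was tested on simulated data over 16577 probes. At day 11 against PBS it recovered 0% of probes with a simulated log2 change of 1, 56% with 2, 82% with 3 and 96% with 4. Same-numbered arrays of different groups had correlated deviations between -0.05 and 0.06, so the replicate numbers were not treated as pairs. Alternatives covered background correction, scaling, the offset, the filter, the probe per gene, the variance prior, array weights, the samples fitted, the threshold, a replicate block, the authors' processed values, the motif and leaving out each array.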

Additional observations from a re-analysis of the deposited data

Results flagged for a closer look

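Of the 41 tested member probes, 4 had every day 11 array on one side of the PBS mean and every day 4 array on the other. The PBS arrays themselves lay on both sides of that mean. The share of all tested probes that meet this rule was not computed. No difference between day 11 and day 4 passed the test. For Hk1 the measured log2 difference of day 11 from day 4 was -1.003 (limma adjusted p = 0.732), with a size left uncertain because Hk1 was not above background on any day 11 array. A dimmer Pfkm probe, detected on 1 of 3 day 11 arrays, had -1.30 (limma adjusted p = 0.643), with its brightest probe at -0.03. A dimmer Pgam1 probe had 0.91 (limma adjusted p = 0.603), with its brightest probe at 0.51. A dimmer Egln1 probe had a measured difference of -0.74, of uncertain size (limma adjusted p = 0.745). That probe was at background on every day 11 array, and its day 4 level was at least 1.07-fold higher.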

How the results depend on the processing

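No member was called at 0.05 under any alternative run, nor at an adjusted p under 0.2 with the main values (limma). The 0.2 threshold was not applied to the other runs. Among those that kept all arrays, the lowest adjusted p at day 11 against PBS was 0.179 for Adm and 0.199 for Pfkfb3 (limma). Leaving out 1 array at a time gave lowest adjusted p-values of 0.177 to 0.644 at day 11 against PBS, 0.326 to 0.675 at day 4 against PBS and 0.497 to 0.99992 at day 11 against day 4. The median change of the members ranged over these from -0.21 to 0.30, from 0.05 to 0.29 and from -0.18 to -0.002. At day 11 against PBS the median turned to -0.21 without PBS replicate 1. Under the other settings the medians ranged from -0.03 to 0.14, from 0.13 to 0.20 and from -0.15 to -0.03. Of the changes of named members, Pfkp at day 4 reversed, to 0.042 without PBS replicate 3 (range -0.74 to 0.042 when leaving out 1 array). The other 347 of 348 kept their direction and their side of the threshold. Some of the 348 could not change direction. These were leaving out an array of the group not compared, the variance prior, fitting only the groups compared and the replicate block. With the replicate number as a block, 0 members were called in each comparison, with lowest adjusted p-values of 0.327, 0.563 and 0.752, and the block changed no call. The 75th percentile scaling moved the all-gene medians to 0.01 in each comparison. Requiring detection on all 9 arrays left 18 members. Adm, Pfkfb3, Ankrd37, Hk1, Egln1, Eno2 and Ero1l were not among them, so their changes were not checked under that setting. The slide was not tried as a block, since the labels and headers used here give none. With 3 arrays per group, changes of 1 on the log2 scale are rarely called, as 0%, 2% and 6% of simulated ones were recovered, so the counts of 0 do not show that the members were level.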
